A study of Mus musculus with 9 samples.

Results

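Tbx2, Tbx3 and Tbx4 are 3 of the genes that encode T-box transcription factors, and their transcripts were followed in E14, a mouse embryonic stem cell line, across 3 culture conditions. They were picked by gene symbol from 35896 genes in the files, because Tbx3 and Tbx4 had been seen at higher levels with the drug CK666 than in controls withdrawn for the same time. That contrast is therefore described below without a test for these 3 genes. The other 14 genes of the T-box family served for comparison.

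Control +LIF2i cells were kept in serum medium with the cytokine LIF, 1 µM of the MEK inhibitor PD0325901 and 1 µM of CHIR99021, an inhibitor of glycogen synthase kinase-3β, on gelatin-coated dishes. Control 72h -LIF2i cells lost all 3 additives for 72 h and differentiated spontaneously. CK666 72h -LIF2i cells were withdrawn likewise in 80 µM CK666, an inhibitor of the actin-nucleating Arp2/3 complex, which was given from the start and at each daily change of medium. CK666 came from a DMSO stock. Whether the controls received DMSO is not stated, so drug and solvent cannot be told apart. Each group had 3 libraries of poly-A RNA, numbered as paired biological replicates of 1 cell line.

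T-box factors bind DNA through a shared domain, the T-box. TBX2 and TBX3 are close relatives that mostly repress transcription, and TBX3 is known in mouse embryonic stem cells as a LIF-dependent factor of the naive state. TBX4 is known for hindlimb and allantois development and, together with its relative TBX5, for that of lung mesenchyme. In the GRCm38 annotation Tbx2 lies on chromosome 11 (85832551 to 85841948) and Tbx4 on the same strand 44473 bases further on (85886422 to 85916097). Tbx3 lies on chromosome 5 (119670669 to 119684724), 147943 bases from Tbx5.

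The relatedness of Tbx2 and Tbx3 is visible in a coding exon of 147 bases that both genes have, and it bears on whether their reads could be told apart. The exon is at chr5:119675558-119675704 in Tbx3 and at chr11:85835795-85835941 in Tbx2, both on the plus strand of GRCm38. They are printed 5′ to 3′ with the bases that differ in capitals.
Tbx3: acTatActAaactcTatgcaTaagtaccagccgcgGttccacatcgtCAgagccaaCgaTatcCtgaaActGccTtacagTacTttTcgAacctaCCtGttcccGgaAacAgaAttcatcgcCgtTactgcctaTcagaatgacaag
Tbx2: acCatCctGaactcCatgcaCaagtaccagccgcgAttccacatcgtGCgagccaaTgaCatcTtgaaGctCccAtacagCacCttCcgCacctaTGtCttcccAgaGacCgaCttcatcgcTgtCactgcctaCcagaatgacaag
The exons share 119 of 147 bases (81%), and their longest identical run is 14 bases. No stretch of 31 bases was common to transcripts of Tbx2, Tbx3 and Tbx4. Of the 31-base stretches, 0.0556% of those of Tbx2, 1.33% of those of Tbx3 and 0.386% of those of Tbx4 also occur in transcripts of other genes. For Tbx3 nearly all of these, 86 of 88, belong to Tbx3os1, an antisense gene that covers 115 of its 6624 exonic bases (1.74%). Tbx3os1 was not analysed here, and strand use in counting is not given in the sources used here.

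The libraries held 16894327 to 22550952 estimated counts. At these totals 3 counts, the detection floor, correspond to 0.133 to 0.178 CPM, estimated counts scaled to a common library total. The replicate 1 libraries stood apart in all 3 groups: they detected 15682 to 17599 genes, and the other libraries 18159 to 18739. The pluripotency markers Pou5f1, Sox2, Nanog, Zfp42, Esrrb and Utf1 summed to 3404 to 4032 TPM, a level per transcript length scaled to a common total, with LIF2i, 2081 to 2258 without and 1997 to 2441 with CK666. None of these 6 was at the floor in any group.

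Measured per length, the order of the levels was the same throughout: Tbx3 was above Tbx4, and Tbx4 above Tbx2, in 9 of 9 libraries. With LIF2i the TPM level of Tbx3 was 137 ± 130 (SD, n = 3), that of Tbx4 0.648 ± 0.326 and that of Tbx2 0.293 ± 0.192. The ranges of Tbx4 and Tbx2 overlapped in this group, at 0.338 to 0.987 and 0.0915 to 0.474 TPM. Without LIF2i the means were 3.25 ± 2.7, 0.839 ± 0.158 and 0.235 ± 0.0892 TPM (n = 3 each), and with CK666 23.9 ± 9.86, 2.44 ± 0.886 and 0.166 ± 0.037 TPM. In these 2 groups the ranges of neighbouring genes in the order did not overlap. Among the 14648 genes tested, 92.4% had a lower mean TPM than Tbx3 with LIF2i, 25.5% without and 62.7% with CK666. For Tbx4 these shares were 11.4%, 10.8% and 22%, and for Tbx2 they were 6.27%, 2.8% and 1.63%.

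Tbx3 was abundant in self-renewing cells, nearly lost on withdrawal and at an intermediate level in withdrawn cells that received CK666. With LIF2i the libraries of replicates 1, 2 and 3 held 375, 121 and 177 CPM, scaled by TMM. Without LIF2i they held 7.33, 3.89 and 5.40 CPM, from 152, 75 and 100 estimated counts. With CK666 they held 32.2, 75.8 and 47.5 CPM. Each group lay in a range of its own. Withdrawn libraries that were all below those with LIF2i were found for 19.2% of genes, and CK666 libraries all below them for 16.8%. Replicate 1 was the highest of its group in both controls and the lowest with CK666. In bulk RNA, fewer cells with a transcript and less of it per cell cannot be told apart.

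**Figure D1:**
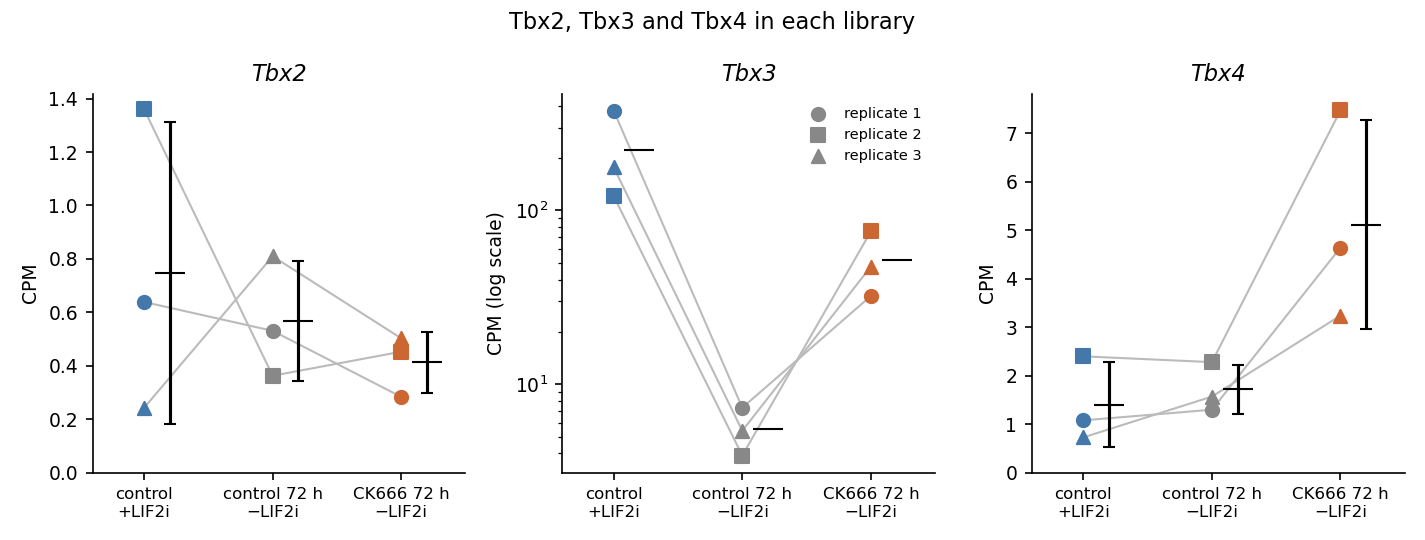
TMM-scaled CPM of Tbx2, Tbx3 and Tbx4 in each library of the 3 groups; symbols mark replicate numbers, grey lines join equal numbers, black bars are group means, with SD (n = 3) on the linear axes of Tbx2 and Tbx4, while Tbx3 is on a log axis. Tbx3 falls to 3.89 to 7.33 CPM without LIF2i and lies at 32.2 to 75.8 CPM with CK666, Tbx4 is highest in the 3 CK666 libraries, and the Tbx2 groups overlap.

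Withdrawal lowered Tbx3 by 5.28 on the log2 scale (SE 0.55, edgeR adjusted p = 2.8e-04), and it was lower in 3 of 3 pairs. This comparison uses the same withdrawn libraries as the contrast by which Tbx3 was chosen, and that choice favours a fall here. Tbx3 was the 1 of 3 T-box genes described here that passed in this comparison, where 19.7% of 14648 genes were called as lowered and 21.1% as raised. In pairs of equal replicate number the withdrawn level was 1.95%, 3.22% and 3.05% of that with LIF2i. The fold was thus larger in replicate 1, at 51.2-fold, than in replicates 2 and 3, at 31-fold and 32.8-fold. Leaving out all replicate 1 libraries gave -4.97 (SE 0.37, edgeR adjusted p = 2.0e-04), and all 20 alternatives passed, at adjusted p of 9.6e-18 to 0.011. Of the 6 pluripotency markers, 4 fell on withdrawal (Sox2, Nanog, Zfp42 and Esrrb), Utf1 rose and Pou5f1 was not called. Esrrb, a nuclear receptor gene of the naive state, was at -4.95 (SE 0.44, edgeR adjusted p = 8.7e-05) and Zfp42 at -4.22 (SE 0.31, edgeR adjusted p = 2.4e-05). Between CK666 and withdrawn controls Esrrb was at 1.26 (SE 0.38, edgeR adjusted p = 0.13) and Zfp42 at 0.51 (SE 0.28, edgeR adjusted p = 0.35), each higher in 3 of 3 pairs. Nanog, Pou5f1, Sox2 and Utf1 were at 0.37, 0.11, 0.06 and -0.18 there, each with 2 of 3 pairs on the same side. Of the 6 markers 0 were called in that comparison. The part of such markers in the Tbx3 change was not tested.

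With CK666, in libraries that also served to choose it, the Tbx3 level remained below that of self-renewing cells. The log2 fold change against Control +LIF2i was -1.97 (SE 0.48, edgeR adjusted p = 0.016), with 3 of 3 pairs lower. The pairs differed widely: the CK666 level was 8.57% of the LIF2i level in replicate 1, 62.7% in replicate 2 and 26.9% in replicate 3. The call was lost without the LIF2i library of replicate 1 (-1.46, edgeR adjusted p = 0.057), without the CK666 library of replicate 3 (-1.95, 0.093), without all replicate 3 libraries (-2.0, 0.13) and without the low-count filter (-1.95, 0.11). The change moved most without replicate 1, to -1.25 (0.021), and without replicate 2, to -2.73 (0.0047).

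The contrast by which Tbx3 was chosen, CK666 against Control 72h -LIF2i, gave a log2 fold change of 3.31 (SE 0.52). Here 1.15% of all genes were called as raised and 8.79% had CK666 libraries that all lay above the controls. The CK666 level was 4.39-fold, 19.5-fold and 8.81-fold that of the control of equal number in replicates 1, 2 and 3. The direction was shared by 3 of 3 pairs, while the size varied between them. Over the 20 alternatives the fold change ran from 2.62 to 3.87.

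Tbx4 was scarce in both controls and higher with CK666. With LIF2i it was at 1.08, 2.40 and 0.729 CPM in replicates 1, 2 and 3, from 22, 46 and 12 counts. Without LIF2i it was at 1.30, 2.28 and 1.57 CPM, and with CK666 at 4.64, 7.47 and 3.24 CPM, from 98, 132 and 58 counts. The 3 CK666 libraries were above the 6 control libraries, whose 2 groups overlapped. Of all genes, 20.5% had CK666 libraries that all lay above those with LIF2i. Summed over each group, Tbx4 had 80 counts with LIF2i (exact Poisson 95% interval 63.4 to 99.6), 100 without (81.4 to 122) and 288 with CK666 (256 to 323).

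Tbx4 was not called for withdrawal: the change was 0.40 on the log2 scale (SE 0.38, higher in 2 of 3 pairs, edgeR adjusted p = 0.44). Against self-renewing cells it rose with CK666 by 1.92 (SE 0.38, edgeR adjusted p = 0.0037, 3 of 3 pairs), in a comparison where 36.9% of all genes were called, 19.8% as raised and 17.1% as lowered. Without the replicate block the value was 1.86 (adjusted p = 0.037), and each of the 20 alternatives passed, at up to 0.046. On the log2(TPM + 1) scale, which shrinks low genes, the value was 1.05 (limma adjusted p = 0.0049). This comparison shares its CK666 libraries with the contrast by which Tbx4 was chosen. That choice favours a rise here, in the main fit and in the 20 alternatives alike, so these are no independent support. In the contrast used for the choice, CK666 against withdrawn controls, the log2 fold change was 1.52 (SE 0.37). Its pairs were at 3.57-fold, 3.27-fold and 2.07-fold in replicates 1, 2 and 3. The pairs of Tbx4 were therefore closer to each other than those of Tbx3. On the log2(TPM + 1) scale it was 0.87.

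Markers of other cell types were measured in the same libraries. The mesoderm markers T, Mixl1, Mesp1, Kdr, Foxf1 and Tbx6 summed to 0.827 to 1.64 TPM with LIF2i, 1.63 to 4.47 TPM without and 1.58 to 2.36 TPM with CK666. T, Mixl1 and Mesp1 were at or under the floor in every library with LIF2i, Mesp1 in every withdrawn control and Kdr in every CK666 library. Fibroblast markers summed to 6.28 to 13.4 TPM with LIF2i, 25.2 to 34.8 TPM without and 16 to 25.7 TPM with CK666, with Lum at or under the floor throughout. Primitive endoderm markers summed to 5.38 to 9.07, 10 to 31.1 and 12.5 to 24 TPM in the same order. Trophectoderm markers, which include Eomes, summed to 4.39 to 9.04, 5.87 to 11 and 5.25 to 8.61 TPM. Cdx2 was at or under the floor with LIF2i, as were Cdx2 and Elf5 with CK666. Between CK666 and LIF2i, the comparison in which Tbx4 was called, edgeR called as raised 1 of 2 tested mesoderm markers (Mixl1, 4.32, SE 1.07, edgeR adjusted p = 0.012), 3 of 6 fibroblast markers (Thy1, Col1a2 and Dcn), 2 of 6 primitive endoderm markers (Pdgfra and Dab2) and 2 of 4 trophectoderm markers (Gata3 and Krt7). Eomes was called as lowered there. Of all genes 19.8% were called as raised in that comparison and 17.1% as lowered. Counts per library were low for Mixl1 (0 to 24), Dcn (0 to 50), Pdgfra (4 to 49) and Gata3 (3 to 81). Between CK666 and withdrawn controls the median log2 fold changes of the tested markers were -0.18 for mesoderm, -0.46 for fibroblasts, 0.16 for primitive endoderm and -0.08 for trophectoderm, beside 0.02 over all genes. Their part in the levels of Tbx3 and Tbx4 was not tested.

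Tbx2 stayed near the limit of detection in every condition. The libraries with LIF2i held 13, 26 and 4 counts (0.639, 1.36 and 0.243 CPM). Those without LIF2i held 11, 7 and 15 counts (0.531, 0.363 and 0.810 CPM), and those with CK666 6, 8 and 9 (0.284, 0.453 and 0.503 CPM). All groups overlapped. The Poisson interval of the lowest library was 1.09 to 10.2 counts and that of the highest 17 to 38.1.

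The log2 fold change of Tbx2 was -0.31 for withdrawal (SE 0.78, edgeR adjusted p = 0.78) and -0.81 for CK666 against LIF2i (SE 0.78, edgeR adjusted p = 0.45), lower in 2 of 3 pairs each. Against withdrawn controls it was -0.50 (SE 0.78). Neither tested change of Tbx2 passed at these counts and this spread between replicates. The withdrawal value turned positive without the replicate 2 libraries (0.56), of which the LIF2i library alone (0.42) or the withdrawn library alone (0.30) sufficed.

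The transcripts of Tbx3 differ in a cassette exon of 60 coding bases, which lies within the sequence that encodes the T-box. It is shown because the estimated share of the transcript that carries it was highest in the 3 withdrawn controls. The test of this difference, 3 libraries against 3, cannot give a p under 0.10, so it could not pass at 0.05. The exon is at chr5:119675243-119675302 on the plus strand of GRCm38. Of the 3 coding transcripts, 1 carries it, called the long form here, and Tbx3-202 and Tbx3-203 skip it.
Tbx3 cassette exon: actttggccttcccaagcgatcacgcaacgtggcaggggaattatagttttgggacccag
With LIF2i the long form took 41.2%, 45.8% and 53.4% of the TPM of the 3 coding transcripts in replicates 1, 2 and 3. Without LIF2i it took 74.8%, 79.2% and 65.5%, and with CK666 57.8%, 38.5% and 36.2%. The withdrawn controls were above all 6 other libraries, and the other 2 groups overlapped.

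The mean share of the long form was 73.2% ± 6.95 without LIF2i (SD, n = 3), 46.8% ± 6.17 with it and 44.1% ± 11.9 with CK666. The difference was 26.4 percentage points for withdrawal and -29 points for CK666 against withdrawn controls. Each gave an exact two-sided permutation p of 0.1, the smallest that 3 against 3 libraries allow, and 0.9 after Benjamini-Hochberg adjustment over the 18 share tests computed. Both tests use the same withdrawn libraries. Between CK666 and LIF2i the difference was -2.64 points (exact permutation p = 0.7). In withdrawn cells the shares rest on the 75 to 152 counts of the gene. Of the 31-base stretches of the long form, 84 (1.74%) are found in no other Tbx3 transcript, against 27 for Tbx3-203 and 0 for Tbx3-202, so the division between them is an estimate whose own error was not analysed here.

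**Figure D2:**
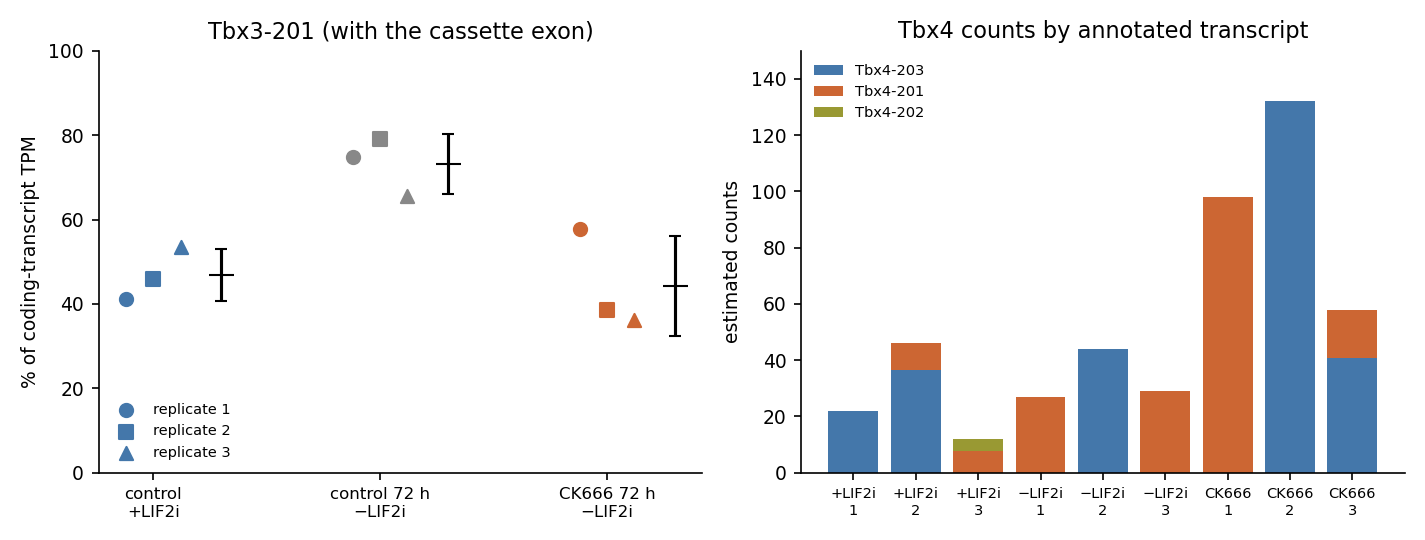
Left, share of the long form (the coding transcript with the cassette exon) in the TPM of the 3 coding Tbx3 transcripts, per library (symbols are replicate numbers, bars are mean ± SD, n = 3); right, estimated counts of Tbx4 in each library, stacked by annotated transcript. The withdrawn controls lie at 65.5% to 79.2% and the other libraries at 36.2% to 57.8%, while Tbx4 counts go wholly to 1 transcript in 6 libraries.

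A short noncoding transcript, Tbx3-205 (485 bases), had the highest mean TPM of all Tbx3 transcripts. It took 0% to 63.3% of the Tbx3 TPM of a library but 0% to 7.24% of the counts, since TPM divides by length. Its TPM share did not separate the groups, with differences of -8.7 points for withdrawal, -6.65 points for CK666 against LIF2i and 2.04 points for CK666 against withdrawn controls (exact permutation p = 0.8, 0.6 and 1). Gene levels of Tbx3 in TPM therefore carry more of this transcript than levels in CPM.

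The Tbx4 counts were assigned to transcripts with different first exons, wholly to 1 transcript in 6 libraries and split in 3. Tbx4-203, which starts furthest upstream, took 100%, 78.3% and 0% of the Tbx4 TPM in replicates 1, 2 and 3 with LIF2i. It took 0%, 100% and 0% without LIF2i and 0%, 100% and 69.4% with CK666. Nearly all other reads went to the transcript that starts next, which has 2 stretches of 31 bases of its own, against 144 for Tbx4-203. The share did not separate the groups (exact permutation p = 1 in each of 3 comparisons), and it differed as much within a group as the scale allows. Tbx4-202 received 4.155 counts in 1 library with LIF2i and none in the others. It begins at the start for which the RefSeq table of GRCm38.p6 gives a Tbx4 promoter, which matched 1 of the 3 genes searched. That 300-base promoter held no match, on either strand, to GGTGTGA (T-box), TTCNNNGAA (STAT), CTTTGA (TCF and LEF), GGCGCC (BMP-SMAD) or the SRF CArG box. Of 32851 promoters 3.98%, 8.3%, 16%, 11.9% and 1.63% hold these.

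Of the 14 other T-box genes, 9 passed the expression filter, and 0 of the 9 were called as raised in any comparison. Of all genes 21.1% were called as raised on withdrawal and 19.8% with CK666 against LIF2i. With CK666 against withdrawn controls 1.15% were. Withdrawal lowered 2 of the 9, Mga and Tbx18, beside 19.7% of all genes, and the median log2 fold change of the 9 was -0.57 against 0.01 over all genes tested. Mga, which encodes a large MAX-binding repressor with a T-box, was at 328 to 378 CPM with LIF2i and 229 to 237 CPM without (log2 fold change -0.57, SE 0.13, edgeR adjusted p = 0.0075, 3 of 3 pairs). Tbx18, a factor of sinoatrial and ureter development, was at 2.9, 1.67 and 1.09 CPM with LIF2i and 0.145, 0.415 and 0.27 CPM without (-2.67, SE 0.66, edgeR adjusted p = 0.011, 3 of 3 pairs). With CK666 Tbx18 was at 0.566 to 0.853 CPM, between both control groups. Leaving out all replicate 3 libraries left 0 of the 9 called on withdrawal, and leaving out replicate 2 left Mga alone. Over all genes 3099 and 3746 were called in these fits, beside 5967 with all libraries.

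Eomes was the only 1 of the 9 T-box genes called between CK666 and LIF2i, as lowered, with a median of -0.27 for the 9. Of all genes 17.1% were called as lowered in that comparison, and 36.9% in either direction. Eomes, a factor of trophoblast, mesoderm and endoderm formation, was at 14.8, 7 and 6.86 CPM with LIF2i, 12.1, 6.7 and 12.7 CPM without and 5.73, 4.93 and 2.35 CPM with CK666. Eomes changed by -1.09 on the log2 scale (SE 0.36, 3 of 3 pairs, edgeR adjusted p = 0.038), and it was not called without the replicate block (-1.14, adjusted p = 0.11). It was not called without replicate 1 or without replicate 3 either.

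Between CK666 and withdrawn controls 0 of the 9 T-box genes were called by edgeR, where 2.05% of all genes were. By unadjusted p under 0.05, 3 of the 9 and 2890 of 14648 genes passed. DESeq2, which called 1140 genes, called Eomes, and limma voom called none of the 9. The median of the 9 was 0.07, beside 0.02 over all genes. Tbx15, a factor of skeletal and skin development, was at 0.519 to 1.30 CPM in withdrawn controls and 2.07 to 2.51 CPM with CK666 (log2 fold change 1.63, SE 0.51, edgeR adjusted p = 0.12, 3 of 3 pairs). Eomes had a value of -1.31 (SE 0.36, edgeR adjusted p = 0.091) and Tbx18 of 1.25 (SE 0.67, edgeR adjusted p = 0.34). T, the brachyury gene of the primitive streak, did not pass the filter. It was at 0 to 0.157 CPM with LIF2i, at 0.145, 0.415 and 2.64 CPM without and at 0.0566 to 0.223 CPM with CK666. Tbr1, Tbx10, Tbx19 and Tbx22 had at most 9 counts in any library. The remaining 5 of the 9 tested, Tbx1, Tbx5, Tbx6, Tbx20 and Tbx21, were called in no comparison and had mean levels of 0.395 (Tbx1) to 3.09 CPM (Tbx20) over the groups.

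**Figure D3:**
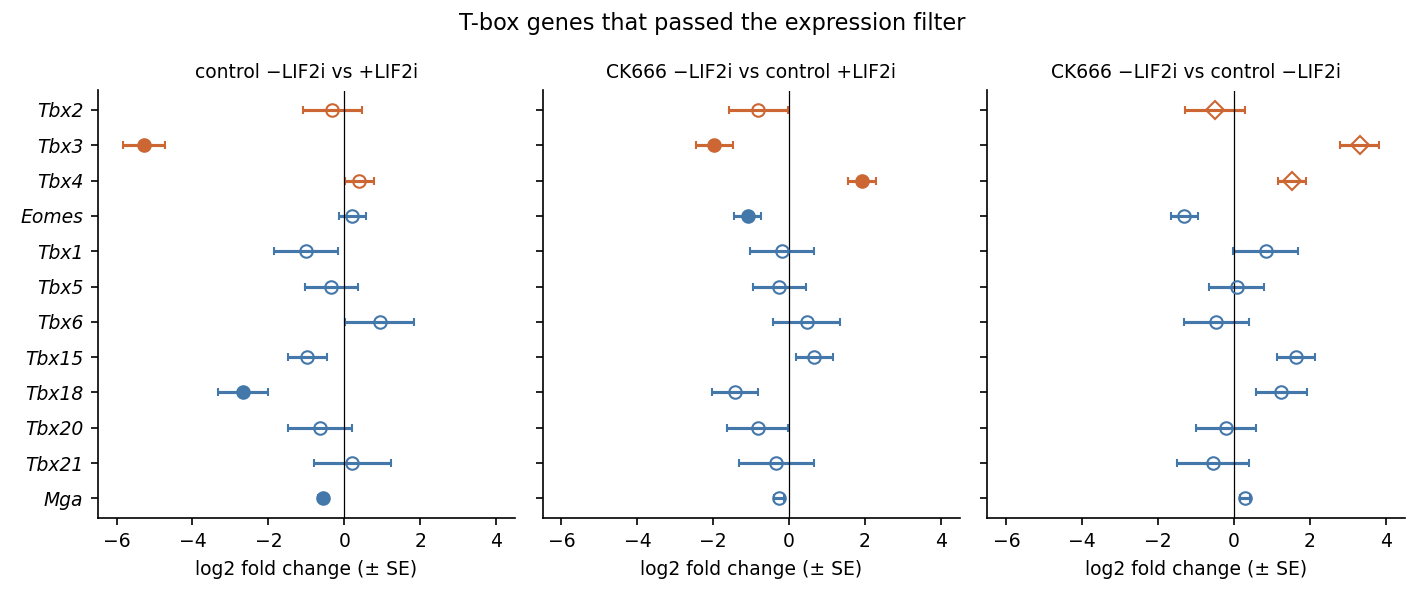
Log2 fold change ± SE of the 12 T-box genes that passed the expression filter in the 3 comparisons; filled circles have an edgeR adjusted p under 0.05, open circles do not, orange marks Tbx2, Tbx3 and Tbx4, and open diamonds are values given without a test. Tbx3 has the value farthest below 0 on withdrawal, at -5.28, and is at 3.31 for CK666 against withdrawn controls.

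Beside the members on the chromosomes, 2 of the 5 nearest annotated genes in the files passed the filter, Tbx5 and Brip1. Tbx5, the neighbour of Tbx3 and a factor of heart and forelimb, had 4 to 15 counts per library and was called in none of the 3 comparisons, at log2 fold changes of -0.34, -0.26 and 0.07. Brip1, a DNA helicase gene 142040 bases from Tbx4, was lowered by withdrawal (-0.82, SE 0.18, edgeR adjusted p = 0.006, 3 of 3 pairs). That call was lost without the replicate block (-0.90, adjusted p = 0.16). With CK666 against withdrawn controls Brip1 was at 0.45 (SE 0.18, edgeR adjusted p = 0.21). Gm11444, between Tbx2 and Tbx4, had at most 1 count, and the pseudogenes Gm11443 and Atp5l-ps2 had 0. The noncoding genes next to Tbx3 and Tbx2 were not analysed here.

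Genes known as targets of TBX2, TBX3 or TBX4 in other tissues were examined next. Of 10 listed, 9 passed the filter. On withdrawal 3 rose and 4 fell, a median of 0.08 against 0.01 over all genes, where 40.7% of genes were called. Gja1, the connexin 43 gene that TBX2 and TBX3 repress in the heart, went from 11.6 to 17.7 CPM with LIF2i to 455 to 546 CPM without (5.15, SE 0.20, edgeR adjusted p = 1.3e-06, 3 of 3 pairs). With CK666 it was at 463 to 628 CPM, and its change against withdrawn controls was 0.04 (SE 0.17, edgeR adjusted p = 0.94). Fgf10, the limb and lung growth factor gene downstream of TBX4, went the other way, from 16.1 to 27.3 CPM with LIF2i to 0.579 to 0.675 CPM without (-5.17, SE 0.32, edgeR adjusted p = 7.0e-06, 3 of 3 pairs). It stayed at 0.623 to 0.9 CPM with CK666. The part of the T-box genes in the levels of Gja1 and Fgf10 was not tested.

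The cell-cycle inhibitor genes Cdkn1a and Cdkn2a fell on withdrawal, by 0.98 (SE 0.26, edgeR adjusted p = 0.017) and 0.71 (SE 0.22, edgeR adjusted p = 0.028) on the log2 scale. The E-cadherin gene Cdh1 rose by 0.40 (SE 0.13, edgeR adjusted p = 0.034). All 3 genes had 3 of 3 pairs on the same side. With the block left out Cdkn2a and Cdh1 were at -0.81 and 0.38 and were not called (adjusted p = 0.26 and 0.27), and 1 of the 9 was raised and 3 lowered. The withdrawal calls over all genes went from 5967 with the block to 3509 without. Cdkn1a was not called without replicate 1 (-0.70, edgeR adjusted p = 0.082) or without replicate 2. Over the 20 alternatives Cdkn1a passed in 13, Cdkn2a in 11 and Cdh1 in 9. Gata6, which TBX3 is known to raise on the way to extraembryonic endoderm, was at 0.945 ± 0.492, 0.96 ± 0.387 and 1.27 ± 0.473 CPM with LIF2i, without it and with CK666 (n = 3 each), and was called in no comparison. Cdkn2b was not called with CK666 against LIF2i (1.22, SE 0.44, edgeR adjusted p = 0.054), though it passed as raised in 8 of 20 alternatives, and Nppa had at most 7 counts.

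Ndrg1, a stress-response gene that TBX2 is known to repress, was 1 of the 9 targets called by edgeR between CK666 and withdrawn controls, and no other target was. DESeq2 and limma voom also called Cdkn2a there as raised (edgeR 0.89, SE 0.22, edgeR adjusted p = 0.067; DESeq2 0.87, DESeq2 adjusted p = 0.0083). Ndrg1 was at 76.9, 133 and 123 CPM with LIF2i, 35.3, 24.5 and 40.3 CPM without and 5.54, 13 and 11.8 CPM with CK666, without overlap between groups. CK666 libraries that all lay below withdrawn controls were found for 7.69% of genes, and 0.894% were called as lowered. The CK666 change was -1.8 (SE 0.28, edgeR adjusted p = 0.026, 3 of 3 pairs), and it passed in 14 of 20 alternatives. It was not called without replicate 3, nor without the block (-1.72, adjusted p = 0.27), where 0 genes were called in this comparison by edgeR and 1251 had an unadjusted p under 0.05. Ndrg1 was thus farther from its LIF2i level with CK666 than without. The 9 targets had a median of 0.04. Against LIF2i, 2 of the 9 rose with CK666, Gja1 among them, and 3 fell (Fgf10, Ndrg1 and Cdkn1a), beside 1 and 3 without the block. Of all genes 19.8% were called as raised in that comparison and 17.1% as lowered. The calls over all genes went from 5408 with the block to 2966 without. Without replicate 1 the target counts against LIF2i were 4 and 3, where 6129 of all genes were called. In the same fit 1 target rose and 2 fell between CK666 and withdrawn controls. There the calls over all genes went from 300 to 1811.

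Among 15 genes that induce T-box genes or work with their products, 12 passed the filter. On withdrawal 1 rose and 5 fell, a median of -0.32, and against LIF2i 1 rose and 4 fell with CK666, a median of 0.00. Of all genes 21.1% rose and 19.7% fell on withdrawal, and 19.8% rose and 17.1% fell with CK666 against LIF2i. The LIF receptor subunit gene Lifr fell by 2.19 (SE 0.16, edgeR adjusted p = 1.6e-05), its co-receptor Il6st by 1.40 (SE 0.15, edgeR adjusted p = 1.1e-04) and the signal transducer Stat3 by 1.8 (SE 0.22, edgeR adjusted p = 2.5e-04) on withdrawal. Each was lower in 3 of 3 pairs. They remained lowered with CK666 against LIF2i, at -1.74, -1.06 and -1.79 (edgeR adjusted p = 6.0e-05, 5.4e-04 and 3.1e-04). Between CK666 and withdrawn controls Lifr was at 0.45 (SE 0.16), Il6st at 0.33 (SE 0.14) and Stat3 at 0.01 (SE 0.21), at an edgeR adjusted p of 0.16, 0.24 and 0.99. Stat3 was at 59.1 ± 20.6 CPM with CK666 and at 58.3 ± 17.4 CPM in withdrawn controls (n = 3 each). These are transcript levels, and the part of these genes in the Tbx3 level was not tested.

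The BMP ligand gene Bmp4 fell on withdrawal by 1.00 (SE 0.29, edgeR adjusted p = 0.020), the cardiac factor gene Nkx2-5 fell by 2.45 (SE 0.69, edgeR adjusted p = 0.019) and the homeobox gene Msx1 rose by 2.09 (SE 0.55, edgeR adjusted p = 0.014). Against LIF2i with CK666, the BMP effector gene Smad1 rose by 0.59 (SE 0.14, edgeR adjusted p = 0.0092) and the co-repressor gene Hdac1 fell by 0.37 (SE 0.13, edgeR adjusted p = 0.047). Over the 20 alternatives Bmp4 and Nkx2-5 passed in 15 each and Msx1 in 17. The calls of Smad1 and Hdac1 were lost without the block, at fold changes of 0.60 and -0.37 (adjusted p = 0.051 and 0.17). By edgeR 0 of the 12 were called between CK666 and withdrawn controls, where 2.05% of all genes were, 5 had an unadjusted p under 0.05, as did 2890 of 14648 genes, and DESeq2 and limma voom called 0. Their median was 0.30 in that comparison. Nkx2-5, which works with TBX2 and TBX5 in the heart, was at 0.0482, 0.208 and 0.378 CPM in withdrawn controls and 0.806, 0.963 and 1.4 CPM with CK666 (2.39, SE 0.69, edgeR adjusted p = 0.10). Without replicate 1 the counts for withdrawal were 1 raised and 7 lowered, and without replicate 3 they were 0 and 3, of 13 genes tested each time. Over all genes 6588 and 3099 were called in these fits, beside 5967 with all libraries. Without replicate 1 Gata4, a heart and endoderm factor gene, was called as raised between CK666 and withdrawn controls (1.41, edgeR adjusted p = 0.013). In that fit 1811 of all genes were called in this comparison, beside 300 with all libraries. With all libraries Gata4 was at 0.95 (SE 0.37, edgeR adjusted p = 0.20, 3 of 3 pairs).

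The genes whose log2 CPM followed each member most closely over the 9 libraries were ranked among 11730 protein-coding genes. This is a description, since all 9 points fall into the 3 groups. For Tbx3 they were Id4, St6galnac3, Lrch3, Gna13 and Xab2 (Pearson r = 0.972 to 0.989). Id4, an inhibitor of basic helix-loop-helix factors, was at 12.4 ± 3.28 CPM with LIF2i, 2.23 ± 0.617 without and 6.34 ± 1.97 with CK666 (n = 3 each), a narrower span than that of Tbx3. For Tbx4 they were Unkl, Adgra2, Zfyve1, Ppp3ca and Cdc16 (r = 0.903 to 0.947). Adgra2, an adhesion receptor gene that acts in WNT7 signalling, was at 2.23 ± 0.955, 4.69 ± 0.941 and 19.5 ± 9.8 CPM in the same order (n = 3 each). For Tbx2, at its low counts, the highest r was 0.747 (Tlcd2), followed by Rdh11, Coq8b, Ggt1 and Mical2.

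**Figure D4:**
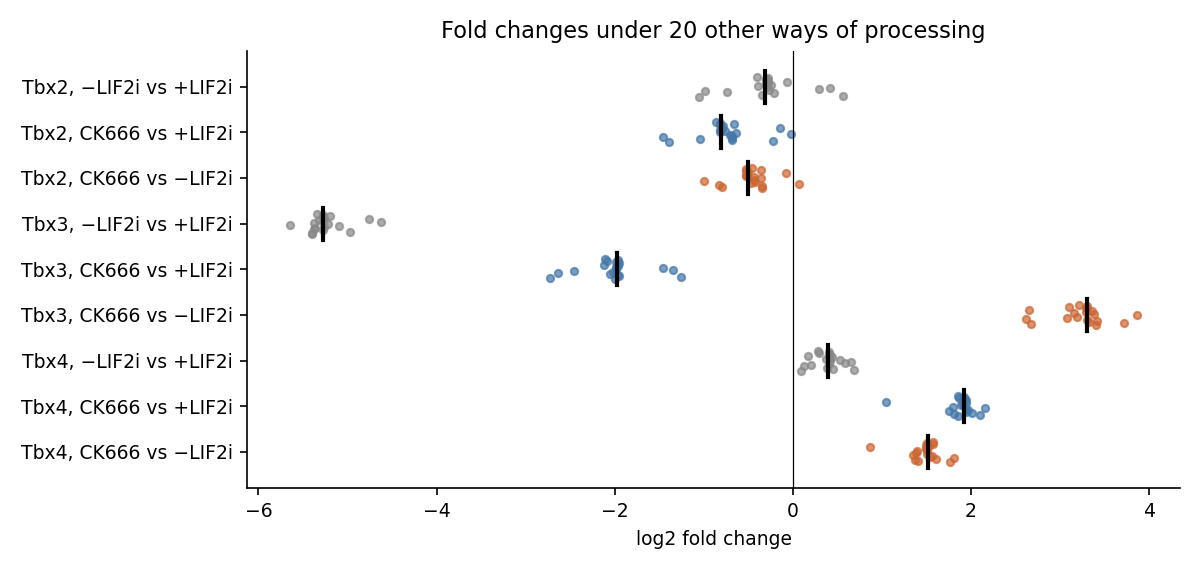
Log2 fold changes of Tbx2, Tbx3 and Tbx4 in the 3 comparisons; black bars are the reported values and each point is 1 of 20 alternatives (other tools, scalings, filters or libraries left out). Tbx3 runs from -5.65 to -4.62 for withdrawal and from 2.62 to 3.87 for CK666 against withdrawn controls. Tbx2 crosses 0 for withdrawal and for CK666 against withdrawn controls, and runs from -1.46 to -0.02 for CK666 against LIF2i.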

How the data were processed

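The members and gene lists were chosen with earlier results of these data known. Each library has a table with, per the file headers, the length, effective length, estimated counts and TPM of 119414 Ensembl transcripts. The estimated counts deposited by the authors are not normalised, and reads matching several transcripts are divided between them. TPM is scaled by the authors within each library. Per the submitters' processing notes, FastQC, cutadapt 1.8.1, kallisto and sleuth were used, with the builds mm10 and GRCh38, in roles not given there. Transcripts were assigned to genes with GENCODE M21 (GRCm38). A gene was found for 97.7%, and the rest, 0.895% to 1.08% of counts, were left out.

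Counts were summed per gene, rounded and tested with edgeR 4.0.16 (R 4.3.3): TMM scaling, the default expression filter, the robust quasi-likelihood test, group and replicate number as terms, all 9 libraries in 1 fit (4 residual degrees of freedom). Genes were called at an adjusted p (Benjamini-Hochberg over 14648 genes) under 0.05, and SE follows from the test statistic. Replicates are called paired in the design text of the study; deviations from group means correlated between libraries of equal number at 0.30 to 0.65. Whether replicates were separate cultures is not detailed, so p-values measure the spread between these libraries. Intervals and floors cover counting error only. Alternatives used DESeq2 1.42.0, limma 3.58.1 and other filters, scalings and library subsets. Named genes are the members; the T-box family and neighbours (4 per side) that passed the filter or are listed at 0; of targets and partners up to 4 called genes per comparison and direction, by largest change; and the 5 protein-coding genes per member with the highest Pearson r, at a mean log2 CPM of 1 or more. Il6st, Cdkn1a, Cdkn2a, Cdkn2b, Bmp4, Hdac1, Gata4, Gata6, Nppa, T, Tbr1, Tbx10, Tbx19, Tbx22 and Gm11444 were named after their values were seen. Counts without a replicate and the list counts by DESeq2 and limma voom were likewise added after seeing the data. The values of 1 listed target, which is counted with its list, are not reported here.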

Additional observations from a re-analysis of the deposited data

How the results depend on the processing

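Of the 6 tested fold changes of Tbx2, Tbx3 and Tbx4, the withdrawal changes of Tbx3 and Tbx4 and the CK666 changes of Tbx2 and Tbx4 against LIF2i kept their direction and their side of the threshold in all 20 alternatives. The call of Tbx3 for CK666 against LIF2i was lost without the low-count filter (-1.95), and leaving out libraries gave -2.73 to -1.25. Leaving out libraries moved the withdrawal change of Tbx2 from -1.05 to 0.56. Leaving the replicate block out of the fit changed no call of these 3 genes in the 2 tested comparisons. Without the block 3509 genes were called for withdrawal, 2966 for CK666 against LIF2i and 0 for CK666 against withdrawn controls, where 1251 had an unadjusted p under 0.05, beside 5967, 5408 and 300 with it. For CK666 against withdrawn controls the count was 1140 with DESeq2, 565 without the filter, 42 on log2(TPM + 1) and 147 with length offsets. Leaving out libraries moved the 3 counts between 3099 and 6588, 2413 and 6129, and 0 and 1811; the cause was not tested. Tbx4 moved to 0.87 on log2(TPM + 1). Among coding transcripts alone the Tbx3 share differences were 26.4 and -29 points, because the long form then ranks first in place of Tbx3-205. Depth was lowest for Tbx2, at 4 to 26 counts per library.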
